A study of Mus musculus with 5 samples.

Results

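8 genes of GABA-B receptor signalling and GABA turnover were followed in blood stem and progenitor cells, and they were chosen by name from a table of 39056 genes. They are the receptor subunits Gabbr1 and Gabbr2, the auxiliary subunits Kctd12 and Kctd16, the GABA-making enzymes Gad1 and Gad2, and the GABA-degrading enzymes Abat and Aldh5a1. All 8 had a row in the table, 6 had at least 1 count, and 3 (Gabbr1, Kctd12 and Aldh5a1) passed the filter on low counts and were tested. The transcripts came from LSK cells, the lineage-negative, Sca-1-positive, Kit-positive fraction of bone marrow that holds stem cells and multipotent progenitors. About 12000 sorted cells went into each library, and the mice were C57BL/6 at postnatal day 15. Wild-type (WT) animals gave 2 libraries, and Gabbr1 null mutants, as they are labelled, gave 3; the extraction protocol names 4 per genotype. No treatment or transgene is named for either group. The sources used here do not give the part of Gabbr1 that the mutation removes, the origin of the allele, or whether each library is a separate animal, so the p-values cover the spread of these 5 libraries, which may be technical. The comparison asks how expression differs in these cells when Gabbr1 is mutated.

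GABA is best known as an inhibitory transmitter of the brain. The metabotropic GABA-B receptor is a pair of a Gabbr1 protein, which binds GABA, and a Gabbr2 protein, which couples to inhibitory G proteins and brings the pair to the cell surface. KCTD proteins such as Kctd12 and Kctd16 attach to Gabbr2 and set the speed and duration of the G protein response. GABA itself is made from glutamate by the decarboxylases Gad1 and Gad2. Abat, a mitochondrial transaminase, turns GABA into succinic semialdehyde, and Aldh5a1 oxidises that to succinate, which enters the citric acid cycle.

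Total counts per library ranged from 6972753 to 8150774, and levels are given as CPM, counts scaled to library size with TMM factors. Null library 1 stood apart. It held 22532 counts of Xist, the transcript of the inactive X chromosome, and 0 counts over 4 Y-linked genes, while no other library exceeded 21 for Xist or fell under 1140 for the Y-linked genes. By these counts null library 1 reads as female and every other library, WT included, as male. The labels give no sex, and the comparison of genotypes has no term for it. In null library 1 the summed level of 8 markers of mature neutrophils was 2196 CPM, against 586 and 132 CPM in null libraries 2 and 3, and the WT libraries had 143 and 106 CPM. Kit and Ly6a (the gene of Sca-1), which the LSK label names, were read in every library. Ly6a was at 12.9 CPM in null library 2 and at 24.0 to 30.3 CPM in the others. Such counts do not check the purity of the sort. Markers of B-lineage cells were not absent from the sort. All 12 had counts in WT, with a summed level of 197 and 83.3 CPM, and 641 to 1142 CPM in null.

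The starts of the 2 members that differed between the genotypes are shown first, as the 250 bases before the RefSeq start on build GRCm38.p6, which is mm10. Both windows are free of annotated exons. GC boxes, GGGCGG on either strand, are in capitals, and each sequence reads 5′ to 3′ along its gene.

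Gabbr1, chr17:37045716-37045965, plus strand: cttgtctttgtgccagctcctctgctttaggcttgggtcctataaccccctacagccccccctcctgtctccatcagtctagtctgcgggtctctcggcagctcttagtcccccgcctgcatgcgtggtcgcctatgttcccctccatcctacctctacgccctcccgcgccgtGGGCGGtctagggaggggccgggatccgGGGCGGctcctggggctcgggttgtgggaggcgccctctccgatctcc

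Kctd12, chr14:102982638-102982887, minus strand: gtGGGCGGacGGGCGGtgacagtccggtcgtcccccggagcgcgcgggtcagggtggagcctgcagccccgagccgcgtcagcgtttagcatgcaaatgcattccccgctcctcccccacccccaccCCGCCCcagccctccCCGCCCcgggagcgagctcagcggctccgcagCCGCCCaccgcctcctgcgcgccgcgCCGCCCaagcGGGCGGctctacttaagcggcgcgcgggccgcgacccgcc

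The Gabbr1 window held 16 CpG dinucleotides and 66.0% GC, and the Kctd12 window 36 CpG dinucleotides and 77.6% GC. Over 32851 promoter windows of the same length the medians were 6 CpG and 52.4% GC. A GC box occurred 2 times before Gabbr1 and 7 times before Kctd12, and 32.7% of all windows held at least 1. On both strands, neither window held the TATA box TATAAA, found in 12.4% of all windows, the CCAAT box, found in 33.8%, or the cAMP response element TGACGTCA, found in 1.55%. Of the remaining members with a RefSeq window, Gabbr2 had 37 CpG, Gad1 and Aldh5a1 17 each and Gad2 13. Unlike the 2 windows shown, these hold annotated exons. They are exons of the gene itself for Gabbr2, Gad1 and Gad2, and of 9330162012Rik on the opposite strand for Aldh5a1. Their CpG numbers were therefore not set against transcript levels.

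The 8 genes spanned a wide range of transcript levels. Compared per kilobase of exon, Kctd12 was the most abundant at 36.3 ± 7.85 CPM per kb (SD over all 5 libraries), followed by Gabbr1 at 5.49 ± 1.34 and Aldh5a1 at 1.36 ± 0.390 CPM per kb. Library values of these 3 did not overlap with those of their neighbours in the order. Kctd12 stood above 90.6% of tested genes on this scale, Gabbr1 above 41.7% and Aldh5a1 above 15.5%, and the median tested gene was at 7.24 CPM per kb. Abat followed at 0.105 ± 0.0641, Gabbr2 at 0.0471 ± 0.0185 and Gad1 at 0.0132 ± 0.0211 CPM per kb, and library values of these neighbours overlapped. Kctd16 and Gad2 had no count in any library. The order was the same with the length of the longest transcript in place of the union of exons.

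**Figure D1:**
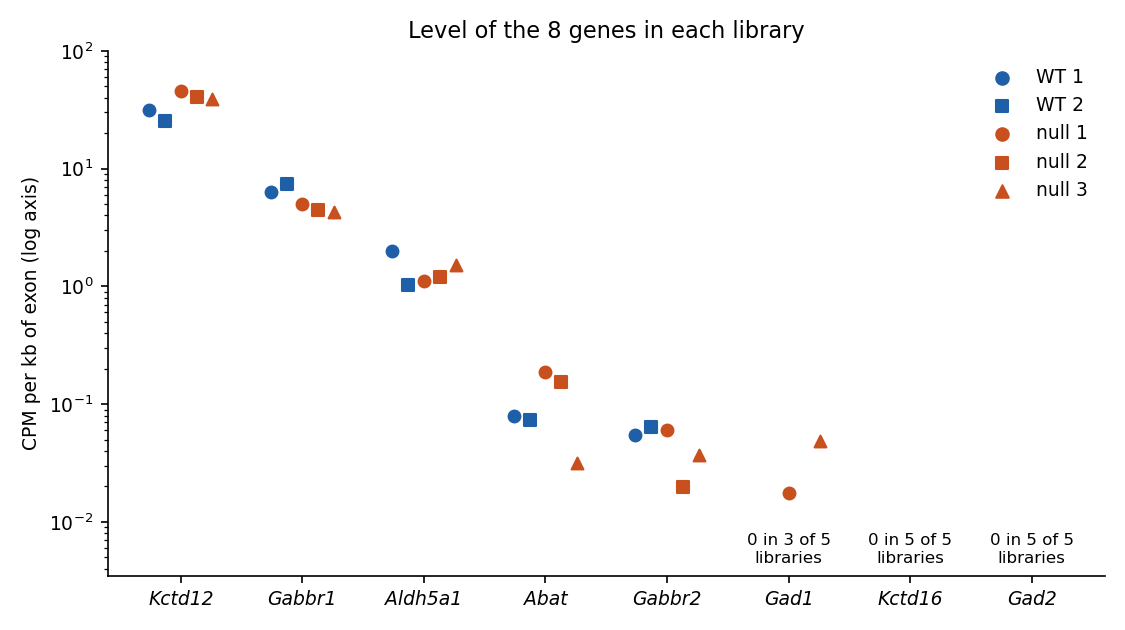
Level of each of the 8 genes in CPM per kilobase of exon on a log axis, 1 point per library (blue WT, orange null; the marker shape gives the library number), with libraries at 0 written as text. Kctd12, Gabbr1 and Aldh5a1 form 3 separate steps, and Abat, Gabbr2 and Gad1 lie more than 10-fold below Aldh5a1 on average.

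Gabbr1, the ligand-binding subunit (ENSMUSG00000024462.17, chromosome 17, 37045966 to 37075067, plus strand), was lower in null but still read. WT libraries measured 49.5 and 57.4 CPM, null libraries 38.5, 34.8 and 33.0 CPM. Every null library was below both WT libraries. The lowest 95% Poisson bound in WT was 44.8 CPM and the highest in null 43.2 CPM, which covers counting error and not the variation between libraries. Null cells held 0.664 times the WT level (95% interval 0.544 to 0.811), which is -0.59 ± 0.13 as log2 (SE), with an edgeR adjusted p of 0.0361. Counts cover the whole gene with its 11 annotated transcripts, so reads from exons outside the mutated part cannot be told apart from reads of an intact transcript, and the remaining level does not check the genotype. In these sorted populations, fewer cells that express a gene and less RNA per cell cannot be told apart. The adjusted p was 0.0355 without null library 1. It rose to 0.0722 without WT library 1, 0.380 without WT library 2, 0.0802 without null library 2 and 0.137 without null library 3.

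Among 13467 tested genes, 0.334% were lower in null and 2.15% higher at an edgeR adjusted p under 0.05, and Gabbr1 was the 1 member lower and Kctd12 the 1 member higher. The log2 fold change was as low as that of Gabbr1 or lower in 434 tested genes, or 3.22%. Library values of the 2 genotypes did not overlap for Gabbr1 (lower) or Kctd12 (higher), as for 13.7% of tested genes in the lower and 15.5% in the higher direction.

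**Figure D2:**
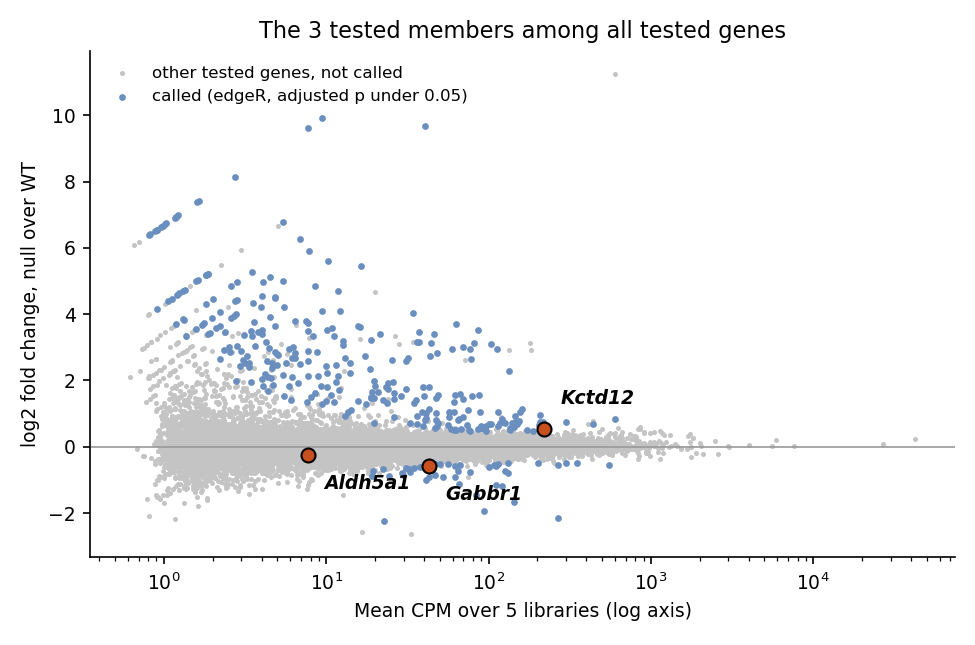
Log2 fold change (null over WT) against mean CPM over the 5 libraries (log axis) for all tested genes in grey, called genes in blue and the 3 tested members in orange. Gabbr1 at -0.59 and Kctd12 at 0.54 are called, and Aldh5a1 at -0.26 is not. In either direction, 1412 tested genes changed at least as much as Gabbr1 and 1545 at least as much as Kctd12, many of them uncalled.

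Gabbr2, the subunit that couples the receptor to G proteins (ENSMUSG00000039809.10, chromosome 4, 46662305 to 46991873), was close to the limit of detection in both genotypes. It had 3 counts in each WT library and 3, 1 and 2 counts in the null libraries. WT averaged 0.398 ± 0.0410 CPM (SD, n = 2) and null 0.259 ± 0.134 CPM (SD, n = 3, exact two-sided permutation p = 0.3, where 0.1 is the smallest p that 2 against 3 libraries allow). Over the 5 libraries Gabbr1 had 1626 counts and Gabbr2 12. Gabbr2 therefore supplied 0.733% of the receptor subunit counts (95% exact binomial interval 0.379 to 1.28%, counting error only). In a fit with no filter on low counts, Gabbr2 did not pass (log2 fold change -0.59, edgeR adjusted p = 0.892).

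Kctd12, which speeds desensitisation of the receptor response in neurons (ENSMUSG00000098557.1, chromosome 14, 102976581 to 102982637, minus strand), was the member with the most transcript and rose in null. Its level was 192 and 153 CPM in the WT libraries and 274, 243 and 238 CPM in the null libraries. All null values were above both WT values, and the 95% Poisson bounds, for counting error only, reached up to 202 CPM in WT and down to 227 CPM in null. The level in null was 1.46 times that in WT (95% interval 1.20 to 1.77, log2 fold change 0.54 ± 0.13 SE, edgeR adjusted p = 0.0463). WT library 2 was the lowest of all. The log2 fold change was 0.39 without WT library 2 and 0.71 without WT library 1. The edgeR adjusted p was 0.123 without null library 1, 0.0608 without null library 2 and 0.0725 without null library 3.

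The single exon block of Kctd12 shares 3805 bases, or 62.8%, with the long noncoding gene Gm26778 on the opposite strand. Gm26778 had 18 and 25 counts in WT and 28, 24 and 18 in null, and its difference was small beside its error (log2 fold change 0.08 ± 0.42 SE, edgeR adjusted p = 0.970). Gm26778 counts were at most 2.33% of Kctd12 counts in any library. The sources used here do not say how reads in the shared stretch were assigned, so the Kctd12 level per kilobase may be an underestimate of unknown size. With the shared bases taken out of the length it was 101 CPM per kb, and Kctd12 kept its first place.

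The other KCTD genes that bind GABA-B receptors were low or silent. Kctd16, which prolongs the receptor response, had 0 counts in all 5 libraries, and 0 counts allow up to 0.0782 CPM (3 counts over the summed libraries, counting error only). Kctd8 had no count either. Kctd12b, a close relative of Kctd12 on the X chromosome, averaged 8.72 ± 1.25 CPM over the WT libraries (SD, n = 2) and 7.75 ± 0.406 CPM over the null ones (SD, n = 3). Its log2 fold change of -0.17 (95% interval -0.69 to 0.34, edgeR adjusted p = 0.841) was of the opposite sign to that of Kctd12. Whether the Kctd12 and Kctd12b changes differ was not tested.

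**Figure D3:**
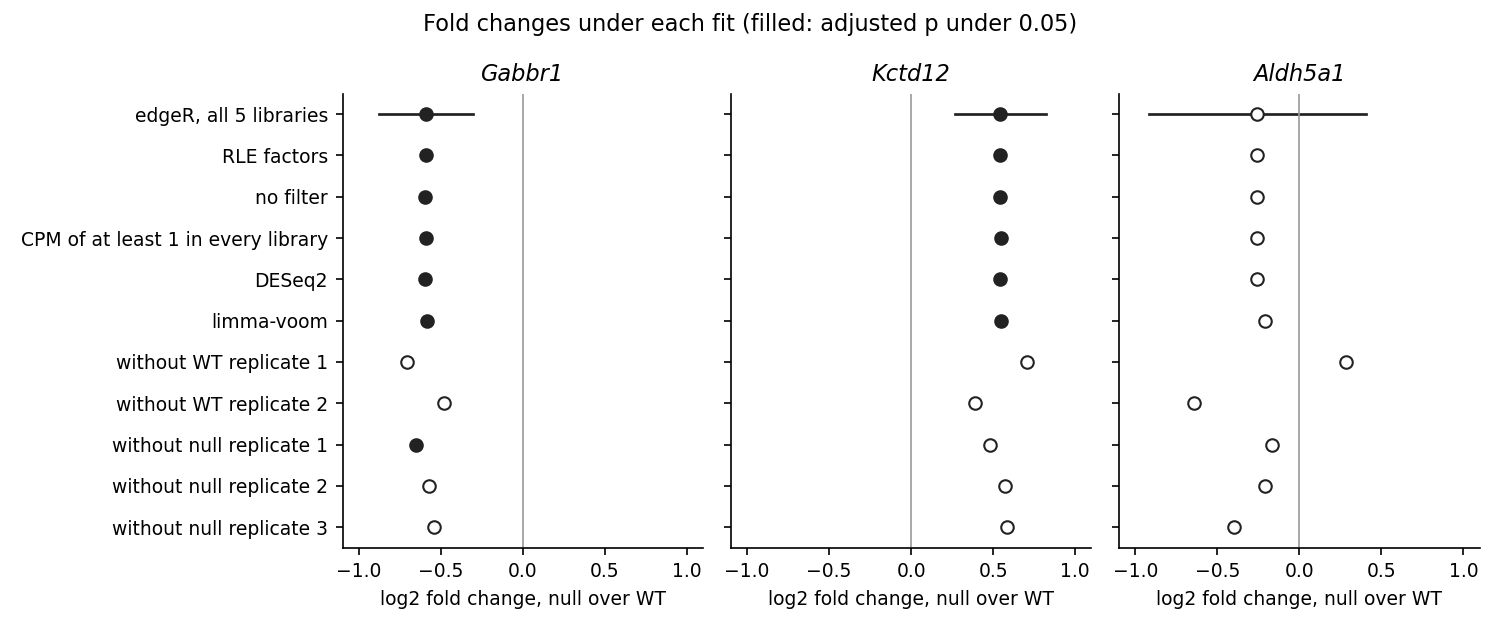
Log2 fold change (null over WT) of Gabbr1, Kctd12 and Aldh5a1 in the edgeR fit on all 5 libraries (bar: 95% interval), in 5 other fits and with each library left out; filled points have an adjusted p under 0.05. Gabbr1 and Kctd12 were called in all fits on 5 libraries, while with 1 library left out Gabbr1 was called in 1 of 5 fits and Kctd12 in 0 of 5.

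Transcripts for making GABA were at or near 0. Gad2 had 0 counts in every library, which allows up to 0.0782 CPM over the summed libraries. Gad1 had 0 counts in both WT libraries, and the null libraries had 1, 0 and 3 (exact two-sided permutation p = 0.4). No fold change is given for Gad1, since its null level of 0.168 ± 0.187 CPM (SD, n = 3) is under what 3 counts stand for in any library. A difference in GABA synthesis genes was not detectable at this depth.

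Of the 2 breakdown enzymes, Aldh5a1 was measured well enough to test and Abat was not. Abat (ENSMUSG00000057880.12, chromosome 16, 8513429 to 8621568), which takes the amino group off GABA, had 5 and 4 counts in WT and 11, 9 and 2 counts in null. Null libraries 1 and 2 were above WT and null library 3 was below it, so the groups overlapped. The WT mean was 0.593 ± 0.0323 CPM (SD, n = 2) and the null mean 0.967 ± 0.639 CPM (SD, n = 3, exact two-sided permutation p = 0.4). With no filter on low counts Abat did not pass (log2 fold change 0.67, edgeR adjusted p = 0.832).

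Aldh5a1 (ENSMUSG00000035936.6, chromosome 13, 24907579 to 24937661, minus strand), which oxidises succinic semialdehyde, was at 11.2 and 5.84 CPM in the WT libraries and 6.26, 6.73 and 8.51 CPM in the null libraries. All null values fell between the 2 WT values. The WT libraries differed from each other by more than counting error, with 95% Poisson intervals of 9.02 to 13.8 and 4.19 to 7.92 CPM. The log2 fold change was -0.26 ± 0.30 (SE, 95% interval -0.92 to 0.41, edgeR adjusted p = 0.805), so the data allow between 0.529 and 1.32 times the WT level. Without WT library 1 the log2 fold change turned to 0.29 (adjusted p = 0.708). Annotated genes on the opposite strand share exon bases with Aldh5a1, and the one of these in the table, 9330162012Rik, had 12 counts over all libraries against 299 for Aldh5a1.

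Around the members, 89 other genes of GABA signalling and metabolism were listed in 8 groups, and 54 were tested. 1 was higher in null and 0 were lower (edgeR adjusted p under 0.05; DESeq2 1 and 0, limma-voom 0 and 0), and before adjustment 2 had a p under 0.05 in the higher direction and 1 in the lower. Among all tested genes, 2.15% were higher and 0.334% lower at an edgeR adjusted p under 0.05. The median log2 fold change of the 54 was 0.04, against -0.00449 over all tested genes. The 1 called gene was Cacna1b, the pore subunit of the N-type calcium channel that GABA-B receptors inhibit in nerve endings. It had 9 and 4 counts in WT and 35, 23 and 59 in null, or 0.839 ± 0.380 CPM (SD, n = 2) and 4.99 ± 2.14 CPM (SD, n = 3). The difference was 2.53 ± 0.54 as log2 (SE) and passed in edgeR at an adjusted p of 0.0277. The adjusted p missed the threshold with limma-voom (0.101) and when WT library 1 (0.117), WT library 2 (0.402) or null library 3 (0.0660) was left out. Cacna1a, the P/Q-type channel subunit, was at 13.1 ± 0.799 and 11.3 ± 1.14 CPM (SD, n = 2 and 3) and did not pass (edgeR adjusted p = 0.729). Of the potassium channel subunits that GABA-B receptors open, Kcnj3, Kcnj6 and Kcnj9 had no count, and Kcnj5 had 0 and 1 counts in WT and 12, 2 and 4 in null libraries 1, 2 and 3.

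The ionotropic side of GABA signalling was almost unread. Of 19 GABA-A receptor subunits, 13 had no count and 1 was tested. That gene, Gabre, encoding the epsilon subunit, measured 5.91 and 6.84 CPM in the WT libraries, against 3.46, 3.83 and 2.84 CPM in the null ones. All null values were lower, but the log2 fold change of -0.91 ± 0.31 (SE) did not pass (edgeR adjusted p = 0.204, unadjusted p = 0.0124). Of the plasma membrane and vesicular GABA transporters, Slc6a11 and Slc32a1 had no count. Slc6a13 was tested at a mean of 1.03 CPM. The lysosomal amino acid carrier Slc36a1, which also moves GABA, averaged 61.0 ± 13.3 CPM over the WT libraries (SD, n = 2) and 51.2 ± 2.51 CPM over the null ones (SD, n = 3, edgeR adjusted p = 0.506).

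Genes of glutamate supply and use ranged from Gls2, at a mean of 0.334 CPM and not tested, to Slc38a1. Their summed level was 1612 and 1580 CPM in the WT libraries, against 1663 to 1736 CPM in the null ones. By edgeR, DESeq2 and limma-voom alike, 0 of 11 tested genes of this group passed, and 0 had an unadjusted p under 0.05 in edgeR. The glutamine carrier genes Slc38a1 and Slc38a2 led this group at 393 and 360 CPM, with 95% intervals of the log2 fold change of -0.10 to 0.40 and -0.19 to 0.30. Among 11 genes of the citric acid cycle steps around succinate, 0 passed in any of the 3 tools and 1, Sucla2, had an unadjusted p under 0.05 (log2 fold change 0.38 ± 0.16 SE, edgeR adjusted p = 0.329). Sdha, the succinate-oxidising subunit, had an interval of -0.27 to 0.19, and Ogdh one of -0.29 to 0.22. For the side route from putrescine to GABA, 0 of 7 tested genes passed in the 3 tools and 0 had an unadjusted p under 0.05. The summed level of this route was 312 and 315 CPM in the WT libraries, against 277 to 288 CPM in the null ones. This is opposite in direction to the glutamate sum, and neither sum was tested. Its most abundant genes, Odc1 (ornithine decarboxylase) and Aldh9a1, differed by -0.21 ± 0.11 and -0.11 ± 0.10 on the log2 scale (SE), with edgeR adjusted p = 0.442 and 0.756.

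Other proteins that bind GABA-B receptors and the wider KCTD family also held no called gene in the 3 tools (0 of 3 and 0 of 17 tested, with 0 at an unadjusted p under 0.05 in each). Jakmip1, which binds the Gabbr1 tail, was at 68.7 ± 5.39 and 71.5 ± 4.66 CPM (SD, n = 2 and 3), and App, whose secreted form binds Gabbr1, at 14.4 ± 2.23 and 17.4 ± 5.42 CPM. Kctd20 and Kctd10 led the KCTD family at 139 and 110 CPM, with log2 fold changes of 0.04 ± 0.11 and -0.07 ± 0.14 (SE).

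**Figure D4:**
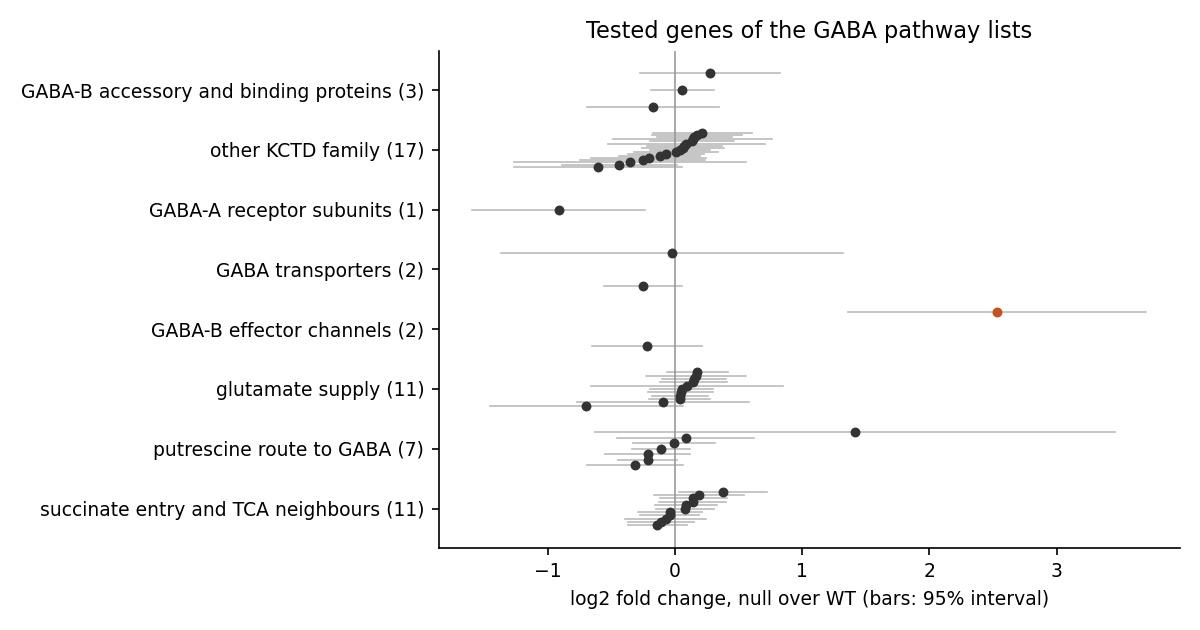
Log2 fold change (null over WT) with 95% interval for each tested gene of the 8 pathway groups, with the number of tested genes in brackets; the 1 gene with an adjusted p under 0.05, Cacna1b, is in orange. Ogdh, Sdha and Slc38a2 have narrow intervals that include 0, and Cacna1b has a wide one above 0.

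Every null library lay outside the WT range for the summed LSK and stem cell, B-lineage, and endothelial and stromal markers. The neutrophil sums and the neuron and glia sums overlapped between the genotypes. Of 12 LSK and stem cell markers, 3 were lower in null and 0 higher at an edgeR adjusted p under 0.05. DESeq2 gave 5 and 0, and limma-voom 3 and 0. Over all tested genes, the edgeR shares were 0.334% lower and 2.15% higher. The transcription factor genes Hlf and Hoxa9 were lower by -0.56 ± 0.13 and -0.50 ± 0.11 on the log2 scale (SE), with edgeR adjusted p = 0.0398 and 0.0284. In sign, 11 of the 12 were negative and 1, Slamf1, was positive (0.60 ± 0.31 SE, edgeR adjusted p = 0.461). Kit at -0.16 ± 0.12 and Ly6a at -0.36 ± 0.26 (SE) did not pass (edgeR adjusted p = 0.643 and 0.644). The sum of all 12 was 4582 and 4828 CPM in the WT libraries, against 3545 to 3951 CPM in the null ones, a log2 difference from the WT mean of -0.41, -0.25 and -0.34 in null libraries 1, 2 and 3. Gabbr1 lay at -0.47, -0.61 and -0.69 in the same libraries and Kctd12 at 0.68, 0.51 and 0.47. In edgeR all 12 B-lineage markers were called higher (11 in DESeq2, 12 in limma-voom). So were 7 of 10 endothelial and stromal markers (6 in DESeq2, 6 in limma-voom). The endothelial and stromal sum was 166 and 177 CPM in the WT libraries, against 278 to 382 CPM in the null ones. Most of the WT sum was Pecam1 (139 and 144 CPM, edgeR adjusted p = 0.211) and Emcn (22.4 and 21.5 CPM, adjusted p = 0.998). The called markers were low in WT, such as Sparc at 0.246 and 0.997 CPM against 21.9 to 33.2 CPM in null, and Lepr was at 0 in WT. None of the 3 tools called any of the 6 tested neutrophil markers (0 of 6), though all 6 had an unadjusted p under 0.05 in edgeR in the higher direction. Neuron and glia markers summed to 134 and 162 CPM in the WT libraries, against 138 to 141 CPM in the null ones, of which Mbp, at a mean of 139 CPM, made up nearly all. The part of any of these cells in the Gabbr1, Kctd12 or Cacna1b differences was not tested.

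**Figure D5:**
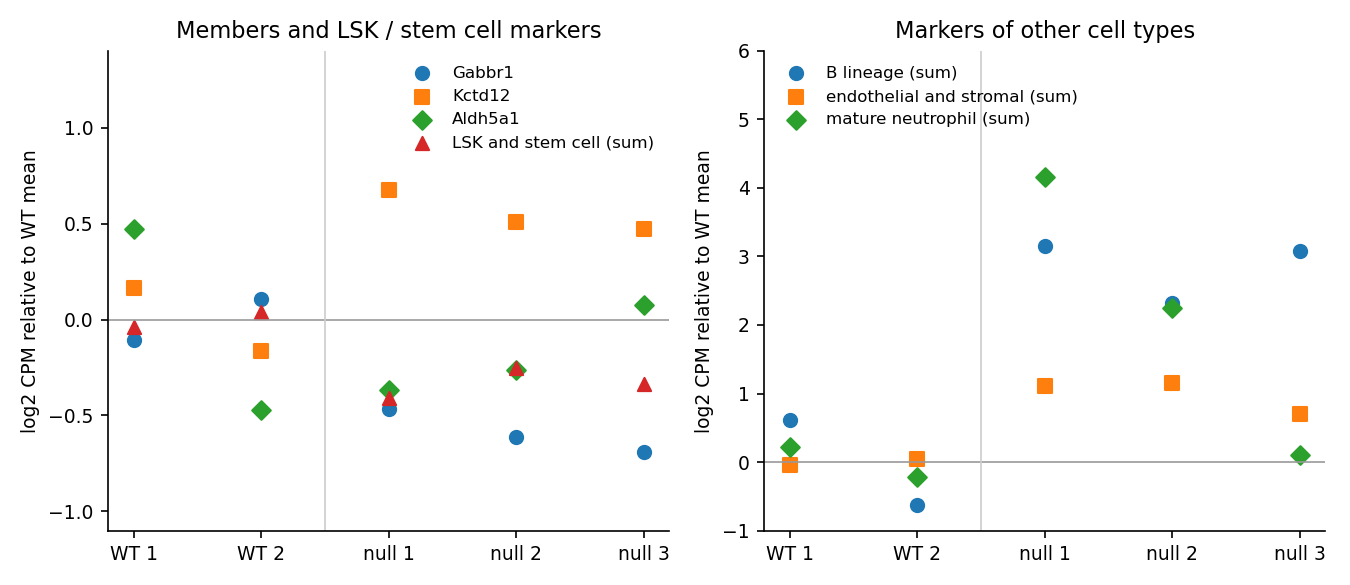
Log2 CPM of each library relative to the mean of the 2 WT libraries, for the tested members and the summed LSK and stem cell markers (left) and for summed markers of other cell types (right, wider scale). Gabbr1 is low and Kctd12 high in all 3 null libraries, Aldh5a1 is spread across WT, and the neutrophil sum ranges from 0.10 to 4.16 within null.

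The genes whose profile over the 5 libraries was most like each tested member were found by the root mean square difference of log2 CPM profiles, each set to its own WT mean. This measure describes 5 libraries in 2 groups and carries no test. Nearest to Gabbr1 were Nfkb2, an NF-kB precursor (0.0389), the cytokine signalling suppressor Socs5 (0.0480) and the co-regulator Mn1 (0.0576), among 17 of 9657 genes within 0.1. Nearest to Kctd12 were Ankrd44 (0.0331), the annexin Anxa1 (0.0378) and the zinc finger gene Hivep2 (0.0429), among 27 genes within 0.1. The 3 genes nearest to Aldh5a1 were Rpl38-ps2, Rps6-ps2 and Rpl32l (0.0695, 0.0720 and 0.0767), copies related to ribosomal protein genes whose reads may be split with their parents. Only 4 genes of 9658 came within 0.1 of Aldh5a1, whose profile is set by the gap between the WT libraries.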

How the data were processed

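Per the labels' protocols, a low-input kit with depletion of unwanted transcripts was used on 3.6 to 5 ng of RNA, and both ends of fragments were read. STAR, featureCounts and mm10 are named in the submitters' processing notes, without versions. The authors deposited raw counts per gene. The sources used here do not give the annotation, the strand setting or the handling of reads with several matches. Every column of counts belonged to 1 of the 5 libraries.

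Symbols, coordinates and exon lengths came from GENCODE M21 (mm10), matched by identifier without version, and 38872 of 39056 genes had a symbol. Promoter windows came from RefSeq. The 13467 genes kept by filterByExpr entered a quasi-likelihood fit in edgeR 4.0.16 (R 4.3.3) with TMM factors, a single genotype term and Benjamini-Hochberg adjustment over all tested genes. SEs are the absolute log2 fold change divided by the root of F. Members below the filter were compared by exact permutation. Alternatives were RLE factors, other filters, DESeq2 1.42.0, limma-voom (limma 3.58.1) and each library left out. The code was tested on simulated data. Intervals from counts cover counting error only. For profiles, 1 CPM was added before the log2 and genes needed a mean of 10 CPM.

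The members and lists were chosen with earlier results of these data known. Named genes were the 8 members, called list genes, the 2 most abundant tested genes of each pathway list, and the 3 nearest profiles per tested member; 1 called marker gene is not reported here. Kctd8, Kcnj subunits, Slc6a11, Slc32a1, Kctd12b, Sucla2, Gls2, Pecam1, Emcn, Mbp, Slamf1 and the genes overlapping members were named after their values were seen.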

Additional observations from a re-analysis of the deposited data

How the results depend on the processing

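Gabbr1 and Kctd12 kept their direction in all 10 alternatives each and their call in the 5 alternatives on all 5 libraries. Leaving out each library in turn gave log2 fold changes of -0.71 to -0.48 for Gabbr1, 0.39 to 0.71 for Kctd12 and -0.64 to 0.29 for Aldh5a1, which was positive only without WT library 1. Members called higher were 0 in every such fit, and members called lower 0 to 1. Pathway list genes called higher were 0 to 1 in these fits, 0 in limma-voom and 0 under the filter of CPM of at least 1 in every library, which did not test Cacna1b. All tested genes called higher numbered 32 to 316 and called lower 0 to 51 with 1 library left out. With no filter 602 were higher and 155 lower, and the filter of CPM of at least 1 in every library gave 173 higher. Fits with a single WT library take its spread from the null group. Ranks of the members by level per kilobase were the same with 2 other lengths, of which the one without shared bases was chosen after the data were seen. Depth limits Gabbr2, Gad1, Gad2, Kctd16 and Abat, each below 1.5 CPM in every library. No paired analysis was possible because the labels give no litter, batch or pairing.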

Other observations

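The balance of Kctd12 to Gabbr1 transcript, a ratio picked after both values were seen and therefore no independent evidence of either change, was even among the null libraries. Per kilobase of exon, Kctd12 exceeded Gabbr1 by 9.11, 8.95 and 9.22 times in null libraries 1, 2 and 3 and by 4.97 and 3.41 times in WT libraries 1 and 2. The mean ratio was 9.09 ± 0.132 in null (SD, n = 3) and 4.19 ± 1.11 in WT (SD, n = 2, exact two-sided permutation p = 0.1, the smallest that these libraries allow). Every null library already had more Kctd12 and less Gabbr1 than both WT libraries. The ratio therefore had to separate the groups, and this p adds nothing to the values of the 2 genes.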
